A study of Mus musculus with 13 samples.

Results

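RNA of 10 AP-1 and immediate early genes was read in bulk RNA-seq of mouse ovary and of ovarian tumors. They are the FOS genes Fos, Fosb, Fosl1 and Fosl2, the JUN genes Jun, Junb and Jund, and Atf3, Egr1 and Ier2. These 10 members were taken by symbol from a deposited table of 53465 genes in 13 libraries, and each has 1 row there. WT libraries came from ovaries of 3 untreated wild-type C57BL/6 mice. MP libraries came from whole tissue of 10 untreated Myc;p53-/- EPO-GEMM tumors, which grew in C57BL/6 females after plasmids carrying MYC in a transposon and Cas9 with an sgRNA against Trp53 were electroporated into the left ovary at 8 to 12 wk of age. Electroporation does not select a cell type, tumors were taken at end point, and the labels of the WT ovaries carry the same protocol text, with its age of 8 to 12 wk, and no other age.

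AP-1 is a pair of leucine zipper proteins, usually 1 FOS protein with 1 JUN protein or a pair of JUN proteins, that binds DNA and carries growth factor, stress and hormone signals to target genes. Immediate early genes are those that cells transcribe within minutes of a signal without making new protein, and their RNA is lost again quickly. In the ovary, the luteinizing hormone surge is known to induce several of them, and FOSL2 and JUND are the AP-1 proteins that persist in luteinizing granulosa cells.

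Values are TPM, the authors' transcript abundances after length correction, scaled to a fixed total per library, which are set per length and so allow genes to be compared within a library. Between libraries they are shares of a total, so a gene also moves when others take more or less of it. Reads worked back from the table came to between 31445004 and 64013840 per ovary and between 3892690 and 19906507 per tumor. All ovaries and MP tumors 1, 2 and 3 share 1 number in their library names, here called request 1. MP tumors 4, 5 and 6 share another (request 2) and tumors 7, 8, 9 and 10 the last (request 3). The word request is used here only as a name for these numbers, and what they stand for is not given in the labels. The tumor libraries also differ in make-up: in MP tumor 2 the 10 most abundant genes took 55.1% of all TPM, against at most 20.6% in any other library. Trp53, the targeted gene, was at 80.7 to 85.4 TPM in ovaries and at 4.30 to 26.0 TPM in MP tumors 1 to 9, while MP tumor 10 had 187 TPM. These RNA levels do not tell whether the gene was edited in a tumor. For all tumors against ovaries, counts of calls are given with and without MP tumors 2 and 10. Summed markers of steroid-making theca and luteal cells (5 genes) were at 25024 to 28130 TPM in ovaries and 7.44 to 824 TPM in tumors, those of granulosa cells (5 genes) at 3225 to 5990 and 4.46 to 1507, and those of epithelial cells (5 genes) at 227 to 257 and 5.49 to 1150. Among the granulosa markers, Fshr and Cyp19a1 were listed at a median of 0 TPM in tumors and Amh at 0.675 TPM, while Foxl2 was at a median of 15.7 TPM and Inha at 64.6 TPM, against ovary medians of 164 and 3225 TPM.

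Fosl2 was lower in every tumor than in any ovary, and its fall was the single change among the 10 members that passed the test over all genes. For each of the other 9 genes the tumors overlapped the ovaries or lay on both sides of them, but 9 of 10 tumors were below every ovary for Jun, 9 for Junb and 8 for Egr1. After median-of-ratios scaling (explained below) the counts were 9 for Jun, 4 for Junb and 8 for Egr1. The share of all tested genes with as many tumors below was not counted. By limma on log2(TPM + 1) with Benjamini-Hochberg adjustment over 17277 tested genes, 1 of 10 members was lower in MP tumors and 0 were higher at an adjusted P under 0.05, where 14.3% of all tested genes were lower and 2.51% were higher. At an unadjusted P under 0.05, 4 members were lower and 0 were higher, where 27.4% of tested genes were lower and 5.63% higher. All 10 members passed the low-value filter, which kept genes that reached 1 TPM in 3 or more libraries. Their median log2 fold change was -0.86, beside -0.58 over all tested genes. After median-of-ratios scaling, which removes a factor shared by the whole library, the medians were -0.36 for members and -0.02 for all genes, 2 members (Fosl2 and Jun) were lower where 10.9% of genes were, and 0 were higher where 7.48% were. Within request 1, 6 members were lower and 0 higher, where 57.3% of genes were lower and 6.44% higher. Without MP tumors 2 and 10, 1 was lower and 0 were higher, where 16.8% of genes were lower and 3.91% higher. With request as a covariate 7 were lower (49.4% of genes lower, 5.17% higher), and with a replicate block in request 1 it was 7 (56.9% lower, 6.34% higher). Both give each gene the fold change of request 1 alone, which holds all ovaries, and differ from it only in the variance. By limma-voom on recovered reads 3 were lower (23.4% lower, 10.9% higher), after quantile normalization 2 (12.1% lower, 11% higher), and with each library's trend with gene length removed 2 (10.3% lower, 10.4% higher). No member was called higher in any of them.

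**Figure D1:**
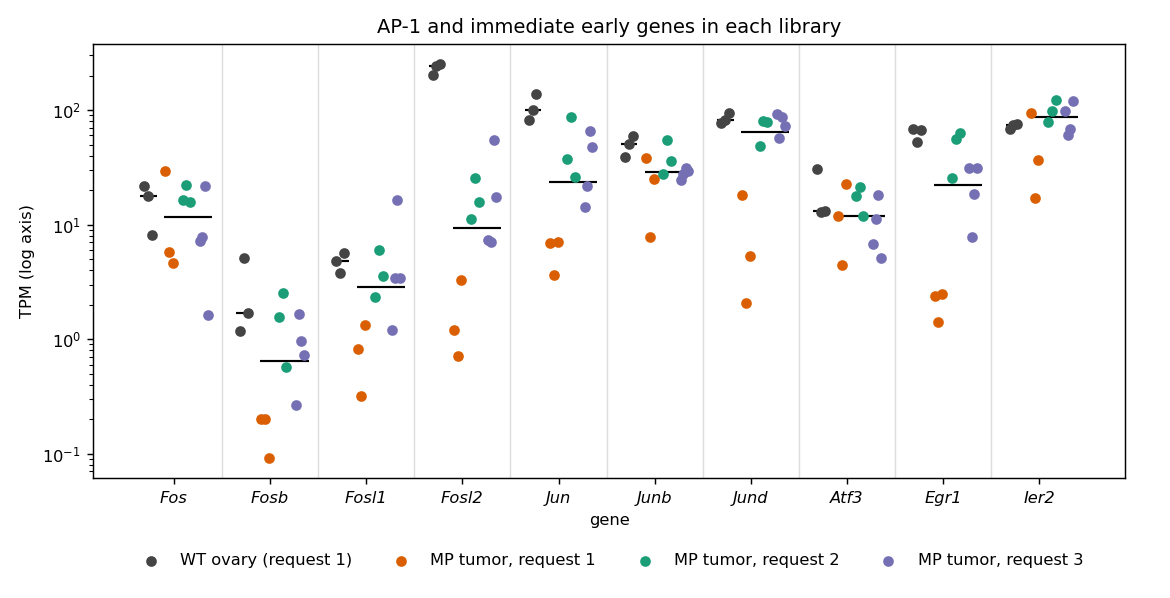
TPM on a log axis of each gene in the 3 WT ovaries and the 10 MP tumors, with tumors colored by request and bars at each group's median. Fosl2 lies at 201 to 254 TPM in ovaries and at 0.706 to 54.3 TPM in tumors, with no overlap, whereas for Fos and Atf3 the groups overlap and for Ier2 the tumors lie on both sides of the ovaries.

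Fosl2 (ENSMUSG00000029135) encodes the FOS protein FRA-2 and lies on chromosome 5 from 32135801 to 32157842 on the plus strand (GRCm38). It was at 201, 241 and 254 TPM in the 3 ovaries. In the tumors it ranged from 0.706 TPM (MP tumor 2) to 54.3 TPM (MP tumor 9), with a median of 9.32. Every tumor was below every ovary, as was so for 16.4% of all tested genes (3.02% had every tumor above every ovary). The log2 fold change was -4.61 (standard error 0.85, limma adjusted P = 0.00171, n = 10 and 3), and 0.585% of tested genes fell at least as far. It was -3.99 after median-of-ratios scaling (limma adjusted P = 0.000559) and -6.52 within request 1 (limma adjusted P = 1.86e-05). These values rest on 21483 to 47889 reads per ovary and 38 to 1397 per tumor, so counting error is small beside the spread between tumors. The summed markers of theca, luteal and granulosa cells named above were likewise lower in every tumor than in any ovary. So were those of oocytes (177 to 276 TPM in ovaries, 1.38 to 22.1 TPM in tumors), endothelial cells (at least 235 and 4.02 to 177) and smooth muscle (1318 to 1542 and 44.3 to 1243). Ranges overlapped for fibroblasts (708 to 1361 and 18.3 to 2785), macrophages (320 to 508 and 72.3 to 475) and T cells (6.67 to 8.29 and 0.140 to 8.04). They also overlapped for neutrophils (6.32 to 11.7 and 5.92 to 66.2) and for the epithelial markers above. The part of any of these cell types in the fall of Fosl2 was not tested. In bulk RNA, fewer cells of a type and less RNA per cell cannot be told apart.

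Fos (ENSMUSG00000021250, chromosome 12 from 85473890 to 85477273), the gene of the founding partner of JUN in AP-1, was at 21.9, 17.6 and 8.11 TPM in the 3 ovaries. In tumors it ranged from 1.64 TPM (MP tumor 10, 6 reads) to 29.1 TPM (MP tumor 1), with a median of 11.7. Of the 10 tumors, 5 were below every ovary, 3 were within the ovary range and 2 were above it. The log2 fold change was -0.48 (standard error 0.66), with a 95% interval from -1.88 to 0.92 (limma adjusted P = 0.618). It changed sign with the scaling, to 0.20 with median-of-ratios (limma adjusted P = 0.850), so no direction can be given for Fos.

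By their medians in each group, Fosb and Fosl1 were the rarest FOS transcripts. Fosb (ENSMUSG00000003545, chromosome 7 from 19302696 to 19310051) was at 1.18, 5.13 and 1.68 TPM in ovaries and at 0.0914 to 2.53 TPM in tumors (median 0.645), on 4 to 64 reads per tumor. Its log2 fold change was -0.92 (standard error 0.41, limma adjusted P = 0.134), with 7 tumors below every ovary and 0 above. Within request 1 it was -1.50 (limma adjusted P = 0.00949), and without WT ovary 2, the highest, it was -0.47 (limma adjusted P = 0.528). Fosl1 (ENSMUSG00000024912, chromosome 19 from 5447703 to 5455945), which encodes FRA-1, was at 4.77, 3.82 and 5.62 TPM in ovaries. In tumors it ranged from 0.316 to 16.5 TPM with a median of 2.87, and MP tumor 9 held the highest value. Of the tumors, 8 lay below every ovary and 2 above every ovary, and the log2 fold change was -0.63 (standard error 0.62, limma adjusted P = 0.484), or -1.68 within request 1 (limma adjusted P = 0.0012). It was -0.17 after median-of-ratios scaling (limma adjusted P = 0.821) and 0.17 after quantile normalization (limma adjusted P = 0.788). Exons of Ccdc85b overlap Fosl1 on the opposite strand.

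The make-up of the FOS family also differed between tumors and ovaries. Fosl2 made up 87.8% to 94.3% of the summed TPM of the 4 FOS genes in ovaries, and 3.85% to 75.3% (median 40.1%) in tumors. The Fosl2 shares did not overlap between the groups, which was not counted for other gene families. As ratios within a library, shares do not depend on a factor common to all its genes. They can still move with a library's trend with gene length, and Fosl2 has 9680 bases and Fos 2352. With that trend removed, the log2 fold changes were -3.62 for Fosl2 and 0.02 for Fos. Fos made up 3.01% to 9.58% in ovaries and 7.04% to 92.9% (median 44.5%) in tumors. Fosl2 was the most abundant FOS transcript in 3 of 3 ovaries and in 5 of 10 tumors, and Fos was in the other 5. The summed TPM of the family was 229 to 269 in ovaries and 7.04 to 93.4 (median 27.3) in tumors. MP tumor 1 stood at the far end, with a Fos share of 92.9% and a Fosl2 share of 3.85%.

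**Figure D2:**
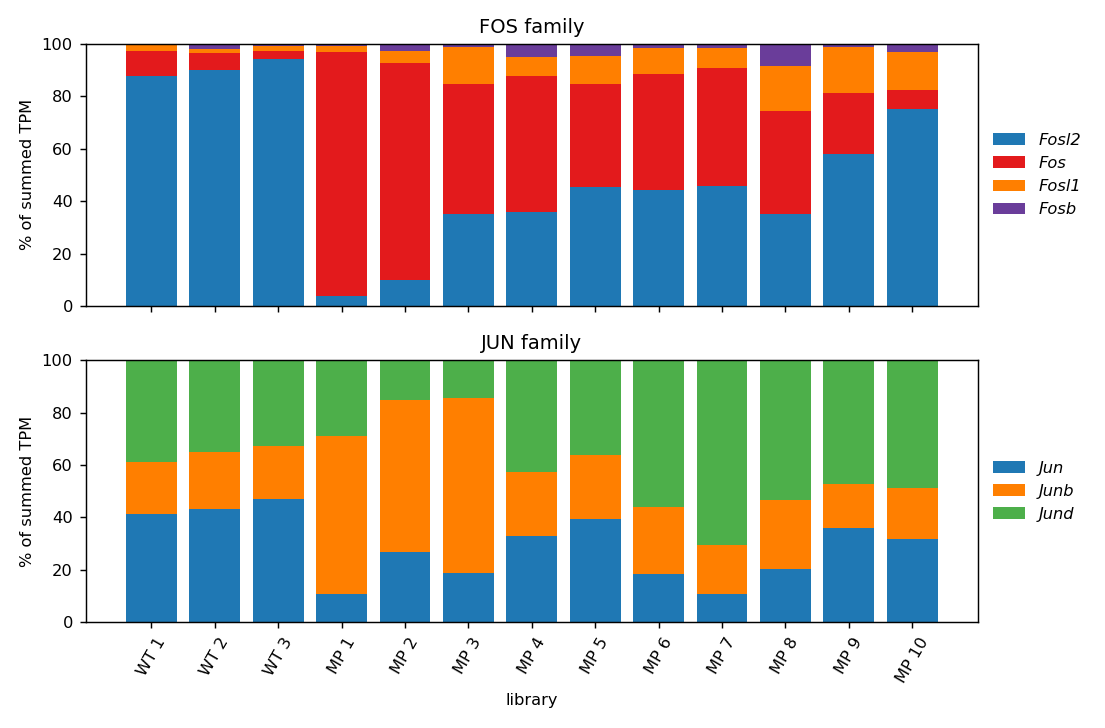
Share of the summed TPM of the FOS genes (top) and the JUN genes (bottom) taken by each gene, as a percentage, in each of the 13 libraries. Fosl2 takes 87.8% to 94.3% of FOS RNA in the WT ovaries and at most 75.3% in the MP tumors.

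Jun (ENSMUSG00000052684, chromosome 4 from 95049034 to 95052222), the central AP-1 subunit, was at 81.8, 100.3 and 138 TPM in the 3 ovaries. Tumors ranged from 3.61 TPM (MP tumor 2) to 87.5 TPM (MP tumor 5), with a median of 23.8. Of the 10 tumors, 9 were below every ovary and MP tumor 5 was within their range. The log2 fold change was -2.24 (standard error 0.77, limma adjusted P = 0.0596), which did not pass the threshold. It passed after median-of-ratios scaling (-1.56, limma adjusted P = 0.0415), after quantile normalization (-1.77, limma adjusted P = 0.0182) and within request 1 (-3.99, limma adjusted P = 6.52e-05). Single libraries also decided the call: it passed without MP tumor 5 (limma adjusted P = 0.0266), without MP tumor 9 (0.0356) or without MP tumor 10 (0.0475). Over all alternatives the adjusted P ran from 4.89e-06 to 0.215, with a negative fold change in each. An antisense gene, Junos, overlaps Jun.

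Jund and Junb did not pass the test over all tumors. Jund (ENSMUSG00000071076, chromosome 8 from 70698949 to 70700616), which encodes an AP-1 subunit known for steady rather than induced expression, was at 77.0, 81.7 and 95.1 TPM in ovaries. It ranged from 2.05 to 91.8 TPM (median 64.7) in tumors, with 6 tumors below every ovary and 4 within their range. Its log2 fold change was -1.23 (standard error 0.93, limma adjusted P = 0.36). It was -3.57 within request 1 (limma adjusted P = 0.0017) and with request as a covariate (limma adjusted P = 0.000115), where it passed. After median-of-ratios scaling it was -0.55 (limma adjusted P = 0.565), and without MP tumor 2 -0.83 (limma adjusted P = 0.413). Junb (ENSMUSG00000052837, chromosome 8 from 84974484 to 84978718), an inducible subunit that can restrain JUN, was at 38.7, 50.9 and 59.0 TPM in ovaries and 7.74 to 55.0 TPM (median 28.6) in tumors, with 9 tumors below every ovary and 1 within their range. Its log2 fold change was -0.80 (standard error 0.44, limma adjusted P = 0.216), and -0.10 after median-of-ratios scaling (limma adjusted P = 0.858). With that scaling 4 tumors were below every ovary and 2 above. The fold change depended on the request as well. It was -1.27 within request 1 (limma adjusted P = 0.0778) and with request as a covariate (limma adjusted P = 0.0335), where it passed. Among the 3 JUN genes, Jun was the most abundant in 3 of 3 ovaries (41.4% to 47.2% of their summed TPM) and in 1 of 10 tumors (10.9% to 39.3%). Jund was the most abundant in 6 tumors and Junb in 3, which were MP tumors 1, 2 and 3. Genes on the opposite strand overlap both, Prdx2 with Junb and Gm11175 with Jund. Whether the counting used strand is not given in the sources used here, so reads of such pairs could not be separated for the 4 members that have them.

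Atf3 (ENSMUSG00000026628, chromosome 1 from 191170296 to 191218039) encodes a stress-induced leucine zipper protein that pairs with JUN proteins. It was at 30.5, 12.9 and 13.2 TPM in ovaries and 4.43 to 22.6 TPM (median 11.8) in tumors, which overlapped. The log2 fold change was -0.55 (standard error 0.52, limma adjusted P = 0.457), and 0.13 after median-of-ratios scaling. Without WT ovary 1, the highest, it was -0.16 (limma adjusted P = 0.881). Egr1 (ENSMUSG00000038418, chromosome 18 from 34859823 to 34864984), a zinc finger factor of the same early response, was at 67.7, 52.7 and 67.6 TPM in ovaries. In tumors it ranged from 1.40 TPM (MP tumor 2) to 62.7 TPM (MP tumor 6), with a mean of 23.8 ± 21.9 (SD, n = 10), and 8 tumors were below every ovary. Its log2 fold change was -2.10 (standard error 0.94, limma adjusted P = 0.132), which passed the threshold in 4 of 26 alternatives. They were request 1 alone (-4.38, limma adjusted P = 2.08e-05), the request covariate and the replicate block, which share that fold change, and limma-voom on recovered reads (-2.31, limma adjusted P = 0.0245).

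Ier2 (ENSMUSG00000053560, chromosome 8 from 84661331 to 84662852), a short immediate early transcript, was the most abundant member in tumors by its median. It was at 68.8, 73.3 and 75.5 TPM in ovaries and 17.1 to 122 TPM in tumors (median 86.4), with 4 tumors below every ovary and 6 above. The log2 fold change was -0.05 (standard error 0.49, limma adjusted P = 0.952). With median-of-ratios scaling 9 of 10 tumors were above every ovary, but its log2 fold change, 0.66, did not pass the threshold (limma adjusted P = 0.167).

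**Figure D3:**
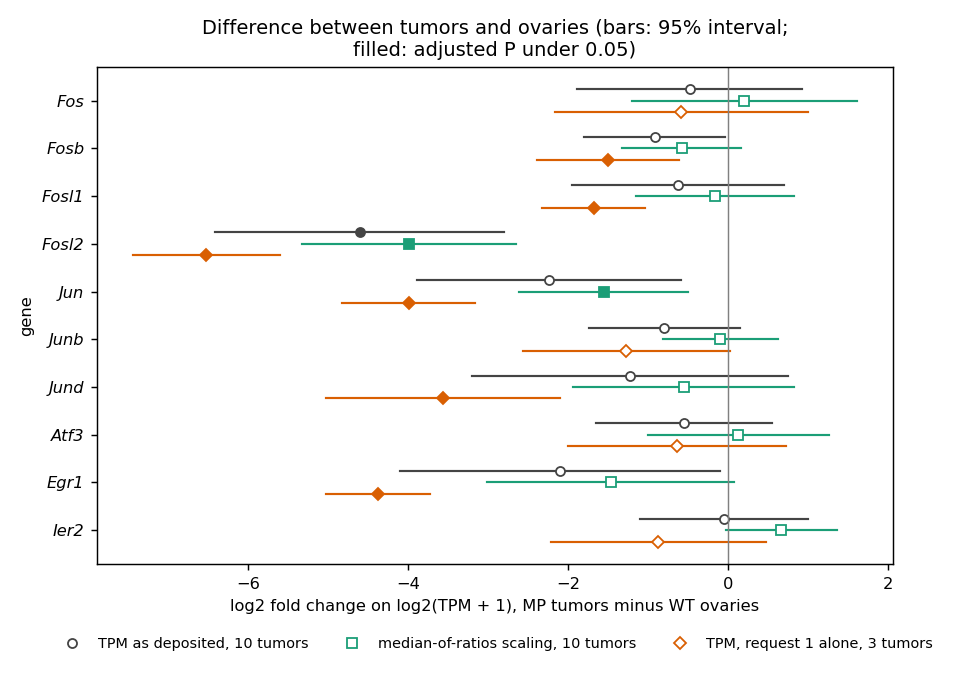
Log2 fold change on log2(TPM + 1) of each gene, MP tumors minus WT ovaries, with its 95% interval, for the TPM as deposited, after median-of-ratios scaling, and within request 1. Filled symbols have a limma adjusted P under 0.05. Fosl2 is filled in all 3, at -4.61, -3.99 and -6.52.

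Several members varied widely from tumor to tumor. The standard deviation of log2(TPM + 1) over the 10 tumors was 1.76 for Egr1, 1.76 for Jund, 1.58 for Fosl2 and 1.43 for Jun, at percentiles 94.2, 94.2, 90.2 and 85.2 of all tested genes. It was 0.69 for Junb and 0.77 for Atf3, at percentiles 33.0 and 40.9. This order depended on the scaling: after median-of-ratios the standard deviation was 1.33 for Egr1, 1.19 for Jund, 1.16 for Fos and 1.14 for Fosl2, while Jun at 0.86 was below Atf3 at 0.89, and Junb was at 0.51. Egr1, Jund, Fosl2 and Jun are also the members that differed by request. In the comparison of the 3 tumors of request 1 with the other 7, they were 4 of 10 members lower in request 1 and 0 were higher, where 30.1% of tested genes were lower and 1.29% higher (limma adjusted P under 0.05). Egr1 was at 1.40 to 2.47 TPM in the 3 tumors of request 1 and at 7.72 to 62.7 TPM in the others, a log2 difference of -3.25 (standard error 0.53, limma adjusted P = 0.00102). Jund was at 2.05 to 18.3 TPM and at 48.4 to 91.8 TPM, a log2 difference of -3.34 (standard error 0.47, limma adjusted P = 0.000618). Between the same tumors the log2 difference was -0.15 for Fos (standard error 0.69, limma adjusted P = 0.884) and -0.12 for Atf3 (standard error 0.52, limma adjusted P = 0.872), and both turned positive after median-of-ratios scaling (1.05 and 1.11) or without MP tumor 2 (0.16 and 0.44). Without MP tumor 2 the same 4 genes passed, with limma adjusted P from 0.0072 for Jund to 0.0316 for Fosl2, where 16.4% of genes were lower and 1.99% higher. After median-of-ratios scaling they passed too, from 0.00338 for Jund to 0.0386 for Jun, where 9.71% of genes were lower and 14.1% higher. All ovaries are in request 1, so the comparison of all tumors with ovaries mixes the requests, and within request 1 these 4 genes and Fosb and Fosl1 were lower in tumors than in ovaries.

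Fosl2, Jun and Fosl1 rose and fell together from tumor to tumor. Over the 10 tumors, Fosl2 and Jun had a Pearson r of 0.946 (permutation test, adjusted P = 0.0018) and a Spearman rho of 0.964 (permutation test, adjusted P = 0.0027). Fosl1 and Fosl2 had r = 0.930 (permutation test, adjusted P = 0.0018) and rho = 0.879 (permutation test, adjusted P = 0.0255), with P values adjusted over the 45 pairs of members. Without MP tumors 2 and 9, the farthest from the median, r was 0.934 and 0.877. With each request centred on its own mean it was 0.832 and 0.914, and after median-of-ratios scaling 0.868 and 0.863. Fosl1 and Jun had r = 0.867 (permutation test, adjusted P = 0.0090) and rho = 0.879 (permutation test, adjusted P = 0.0255), with r = 0.896 without the same 2 tumors, 0.806 with requests centred and 0.727 after scaling. A request holds too few tumors for a value of its own. MP tumors 9 and 5 had the most Fosl2 (54.3 and 25.6 TPM) and the most Fosl1 (16.5 and 6.02 TPM), and also the most RNA of 4 fibroblast markers (Col1a1, Dcn, Lum and Pdgfra), with sums of 2785 and 1189 TPM against 18.3 to 297 TPM in the other 8 tumors. The same tumors also had the highest sums of 4 endothelial markers (141 TPM in MP tumor 9 and 177 TPM in MP tumor 5) and of 4 macrophage markers (345 and 475 TPM), and MP tumor 5 had the highest sum of smooth muscle markers (1243 TPM). The part of these cell types in the members' levels was not tested.

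Of the 45 pairs, 45 had a positive r (median 0.584) and 12 passed the threshold by Pearson's r, 4 of them also by Spearman's rho, the fourth being Egr1 with Ier2 (r = 0.772, and 0.221 after median-of-ratios scaling). After median-of-ratios scaling, 24 pairs were positive and the median r was 0.084. The shares of pairs of all tested genes that are positive or pass were not counted, so these counts say nothing particular to the members. Fos and Jun had r = 0.225 (permutation test, adjusted P = 0.595) and rho = 0.273 (permutation test, adjusted P = 0.558). That value turned on MP tumors 1 and 10, since r was 0.925 without them, and on the scaling, since it was -0.191 after median-of-ratios. MP tumor 1 had the highest Fos of any tumor beside 6.85 TPM of Jun, and MP tumor 10 had the lowest Fos beside 47.4 TPM of Jun. Among the genes outside the members most like Fos over the 10 tumors were Fam69a (r = 0.931) and Zfp605 (0.901). Those most like Jun were Arsa (0.989), Zbtb7b (0.988) and Magi1 (0.988), among 10918 genes with a mean of at least 5 TPM in tumors. These values of r are a description, and share the library totals.

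**Figure D4:**
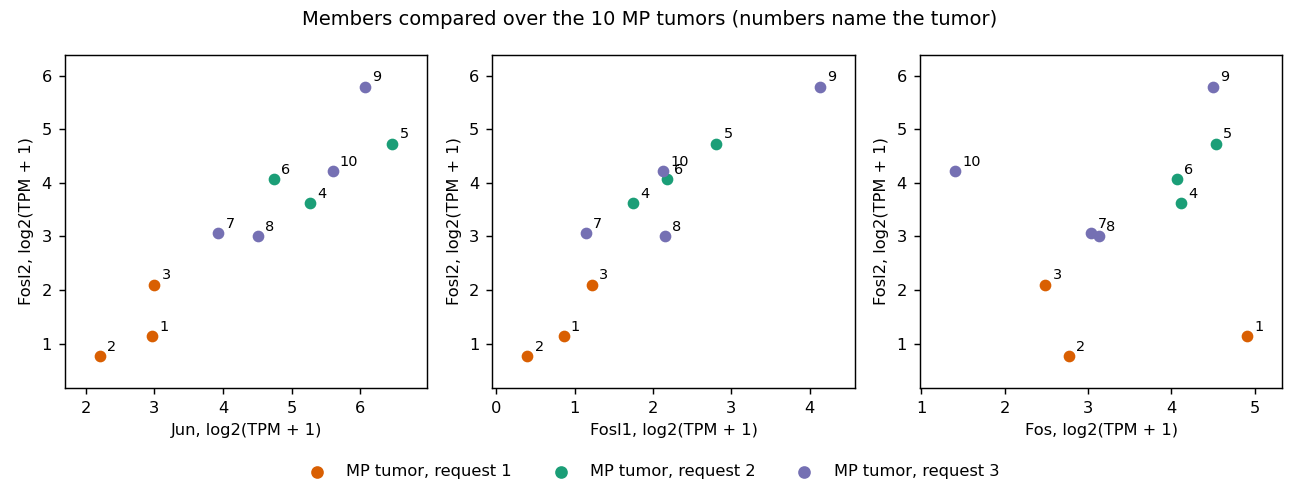
Log2(TPM + 1) of Fosl2 against Jun, Fosl1 and Fos in the 10 MP tumors, colored by request and numbered by tumor. Fosl2 rises with Jun (r = 0.946) and with Fosl1 (r = 0.930), and in the panel of Fos MP tumors 1 and 10 lie away from the rest.

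The promoters of Fos and Jun are shown because their proteins pair in AP-1. RefSeq sequence (GRCm38.p6) was held for 7 of the 10 members, as windows of 300 bases from 250 before to 50 after the start site. The 120 bases before the start site of Fos (chr12:85473770-85473889, plus strand) and of Jun (chr4:95052223-95052342, minus strand) read 5′ to 3′ as follows, with capitals marking the match to TGACGT in Fos and to TGACATCA in Jun.
Fos: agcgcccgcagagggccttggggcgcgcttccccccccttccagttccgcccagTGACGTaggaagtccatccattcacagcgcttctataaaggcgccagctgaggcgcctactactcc
Jun: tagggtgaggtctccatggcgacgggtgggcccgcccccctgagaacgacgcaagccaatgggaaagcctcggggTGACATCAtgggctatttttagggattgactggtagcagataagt
TGACGT is the core of the cAMP response element that CREB and ATF proteins bind, and TGACATCA is a variant of the AP-1 site. On either strand, TGACGT was found in the windows of 2 of the 7 members (Fos and Atf3) and in 7.51% of all 32851 windows. TGACATCA was found in 1 of the 7 (Jun) and in 3.62% of all windows. The canonical AP-1 site TGANTCA, the MYC-binding E-box CACGTG, the full element TGACGTCA and the CArG box were in 0 of the 7 member windows, and in 7.81%, 7.15%, 1.79% and 1.63% of all windows. Sites farther from the start were not searched, and Fosl1, Egr1 and Ier2 had no window. The start sites used for Fosl2, Jund and Atf3 lay 671, 1210 and 34706 bases from the gene start in the deposited table. TGACGT lies inside every TGACGTCA. The upstream part of the Fosl2 window lies within an annotated exon and is not printed.

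Other genes of the response were read from lists. Of 26 tested among 28 other immediate early genes, 5 were lower and 0 higher in MP tumors, with a median log2 fold change of -0.90. For each list the background over all tested genes is 14.3% lower and 2.51% higher with a median of -0.58. It is 16.8% lower and 3.91% higher without MP tumors 2 and 10, and 57.3% lower and 6.44% higher within request 1. After median-of-ratios scaling it is 10.9% lower and 7.48% higher with a median of -0.02, and after quantile normalization 12.1% lower and 11% higher. Dusp1, a phosphatase that shuts off MAP kinases, fell from 50.1 TPM (mean of 3 ovaries) to 13.3 TPM (mean of 10 tumors), by 1.97 on the log2 scale (limma adjusted P = 0.00922). Klf6 and Klf4, zinc finger factors, had log2 fold changes of -1.93 (limma adjusted P = 0.00944) and -2.30 (limma adjusted P = 0.0212). The others lower were Egr2 (log2 fold change -1.80) and Egr3 (-1.66), relatives of Egr1. The list had 5 genes lower after median-of-ratios scaling (median -0.32), 7 after quantile normalization, 7 without MP tumors 2 and 10, and 18 within request 1.

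Of 17 tested leucine zipper genes outside the members, 3 were lower and 0 higher (median log2 fold change -0.95). Without MP tumors 2 and 10 it was 4 (16.8% of all genes), and within request 1 it was 14 (57.3% of all genes). Maf fell from 45.4 to 8.62 mean TPM (log2 fold change -2.84, limma adjusted P = 0.0169), while Batf2 was low throughout (1.97 and 0.438 mean TPM). Of 29 kinases and SRF-partner factors upstream of the immediate early genes, 3 were lower and 0 higher (median -1.13). It was again 3 without MP tumors 2 and 10, and 25 within request 1, beside the same shares. Rps6ka2, a ribosomal S6 kinase downstream of ERK, fell from 105 to 4.97 mean TPM (log2 fold change -4.62, limma adjusted P = 0.000726). Elk3, an ETS factor that partners SRF, fell from 45.0 to 9.35 mean TPM (-2.67, limma adjusted P = 0.0212), and Mapk10 was the other.

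Among 14 feedback inhibitors of MAP kinase signaling, 1 was higher and 1 lower (median -1.31). Without MP tumors 2 and 10 there were 1 higher and 3 lower (3.91% and 16.8% of all genes), and within request 1 there were 1 and 13 (6.44% and 57.3%). Dusp2, a nuclear phosphatase known from activated leukocytes, rose from 1.83 to 15.3 mean TPM (log2 fold change 2.29, limma adjusted P = 0.0110), with 1.74 to 1.90 TPM in ovaries and 4.58 to 28.6 TPM in tumors. Spry4 fell by 2.08 on the log2 scale (limma adjusted P = 0.0352). Of 17 tested genes known as AP-1 targets, 4 were lower and 0 higher (median -0.53, and 0.18 after quantile normalization). Without MP tumors 2 and 10 it was 3, and within request 1 it was 12, where 16.8% and 57.3% of all genes were lower. Those over all tumors were Tnc, a matrix glycoprotein (294 to 9.64 mean TPM, log2 fold change -5.48, limma adjusted P = 0.000161), Plau, the urokinase gene (284 to 30.9, -3.63, limma adjusted P = 0.00287), the membrane metalloproteinase gene Mmp14 (157 to 35.5, -3.37, limma adjusted P = 0.0421) and the inhibitor gene Timp1 (571 to 86.6, -2.72, limma adjusted P = 0.00494). After median-of-ratios scaling these 4 lists had as many calls as before, where 10.9% of all genes were lower and 7.48% higher. After quantile normalization the leucine zipper list had 2 lower and the upstream list 5, where 12.1% of all genes were lower.

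Genes of the luteinizing hormone response of the follicle were mostly lower in tumors. Of 13 tested genes, 11 were lower and 0 higher, with a median log2 fold change of -4.94, where 14.3% of all genes were lower. It was 11 after median-of-ratios scaling and without MP tumors 2 and 10, and 12 within request 1. Lhcgr, the hormone's receptor, was at 599 mean TPM in ovaries and 0.716 in tumors (log2 fold change -8.60, limma adjusted P = 6.90e-08). Sfrp4 was at 2207 and 3.23 mean TPM (-9.14, limma adjusted P = 3.32e-08), and Cyp11a1, which makes pregnenolone from cholesterol, at 6661 and 28.9 (-9.61, limma adjusted P = 1.80e-05). Of this list, 5 genes are themselves among the granulosa, theca and luteal markers, and all 5 are among the lower genes.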

How the data were processed

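Bulk polyA RNA of 3 WT ovaries and 10 MP tumors was sequenced from 1 end at 76 bp. The authors deposited TPM per gene and library, unpooled, each library summing to 1000000. The submitters' processing notes list Trimmomatic 0.36, STAR 2.5.3a, featureCounts 1.6.3 and GRCm38, while a protocol label names hg19, HTSeq and RPKM. Of the table's mouse genes 96.2% have GENCODE M21 positions. TPM is a share, so a gene falls when others take more. TPM times length was a whole multiple of 1 step (within 0.01) for 100% of values above 0, which gave reads. Columns were matched by the description label, and 0 were left unused.

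Log2(TPM + 1) was tested with limma 3.58.1 (trended, robust) in R 4.3.3 over genes with at least 1 TPM in at least 3 libraries, all 10 tumors against 3 ovaries without a covariate, at a Benjamini-Hochberg adjusted P under 0.05. The script was tested on simulated data. Correlations used 100000 permutations, 2-sided. Alternatives varied the pseudocount, filter, scaling, model, request, replicate block and single libraries, and 2 added after seeing the data left out MP tumors 2 and 10 or removed each library's trend with gene length. Named genes are all members, up to 3 called genes per list with the largest change and a mean TPM of at least 5, and the 3 most like Fos and Jun. Other called genes of a list with 5 or fewer calls were named after their values were seen. Some genes that this rule names are not reported here. Members and lists were chosen with earlier results of these data known. The labels give separate samples, each taken here as 1 animal. Other steps used Python 3.11.15 (pandas 2.3.3), and figures drawn with matplotlib 3.10.9.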

Additional observations from a re-analysis of the deposited data

Results flagged for a closer look

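In 17 measures (the TPM of each member and each gene's share of its family), the highest and lowest of the 10 MP tumors were set against the others. On the TPM scale, MP tumor 9 lay apart in 2 of them, at a level that chance gives in about 1 of 20 measures. Fosl1 was at 16.5 TPM there, against 6.02 TPM in the next tumor, on 75 reads. Fosl2 was at 54.3 TPM there, against 25.6 TPM in the next tumor, on 1397 reads. Neither held on log2(TPM + 1), where the gap was 0.354 of the whole range for Fosl1 and 0.211 for Fosl2. On that scale 1 of the 10 members had a tumor apart, Junb in MP tumor 2, with a gap of 0.574 of the range at its low end. That did not hold after median-of-ratios scaling. Junb was then at 24.5 in MP tumor 2, above MP tumors 9 (21.2) and 10 (20.5).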

How the results depend on the processing

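Fosl2 stayed lower and past the threshold in 26 of 26 alternatives, with log2 fold changes from -6.52 to -3.62. Request 1 alone, the request covariate and the replicate block share 1 fold change per gene, so they are not separate checks. The number of members called lower was 1, and 0 were higher in any alternative. It was 6 in request 1 alone, 7 with request as a covariate, 3 with limma-voom on recovered reads, and 2 with median-of-ratios scaling, with quantile normalization or with the length trend removed. Leaving out 1 tumor gave between 1 and 2, where 2055 to 3264 of the 17277 tested genes were lower. Leaving out 1 ovary gave 1, where 1158 to 1195 were lower. Fos changed sign with median-of-ratios (0.20), quantile normalization (0.43) and the length trend removed (0.020), Atf3 with median-of-ratios (0.13) and quantile normalization (0.30), and Fosl1 with quantile normalization (0.17). Ier2 changed sign with limma-voom (0.22), median-of-ratios (0.66), quantile normalization (0.36), the length trend removed (0.29), without MP tumors 2 and 10 (0.10), without MP tumor 2 (0.17) and without MP tumor 3 (0.05), and leaving out single libraries gave -0.14 to 0.17. None of these reversed values passed the threshold, and the cause was not tested. The median r over the 45 pairs of members fell from 0.584 to 0.314 with requests centred and to 0.084 with median-of-ratios scaling.

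Over all tested genes 433 were higher and 2463 lower, so that 15.0% of calls were higher. This share was 40.6% with median-of-ratios (1292 and 1887), 47.7% with quantile normalization (1904 and 2091), 31.7% with limma-voom (1879 and 4042) and 50.1% with the length trend removed (1789 and 1779). Request 1 alone gave 1112 and 9902, the request covariate 894 and 8534, no filter 376 and 3631, and leaving out 1 ovary 94 to 153 and 1158 to 1195.

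WT and MP numbers 1 to 3 name different animals, and deviations of same-numbered libraries correlated between -0.0963 and 0.00118, so the numbers do not pair them. With a replicate block in request 1, 7 members were lower, adding Junb (limma adjusted P = 0.0493) to those of request 1 alone, among 1095 higher and 9838 lower genes. Depth limits Fosb and Fosl1 most, at 3 to 75 reads per tumor. Fosb could not be tested with the TPM filter of 5.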
